A study of Mus musculus with 14 samples.

Results

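Complex I subunit genes were taken as every gene on the array whose symbol starts with Nduf followed by a, b, c, s, v or ab and a number, which leaves out the assembly factor genes. The rule found 36 genes among the 18193 tested, each represented by the probe set of highest mean level over the 14 arrays among those that carry its symbol alone. A probe set is a group of short probes for 1 transcript. Its level is given on the log2 scale, where a difference of 1 is a doubling of signal. By role the genes comprise 3 core subunits that oxidise NADH, 3 core subunits near the ubiquinone site, 8 accessory subunits of the matrix arm, 19 of the membrane arm and the acyl carrier protein gene Ndufab1. Another 2 genes, Ndufa4 and Ndufa4l2, carry the name but are not counted as complex I subunits today, because the Ndufa4 protein is now placed in complex IV and Ndufa4l2 is its relative. A further 8 names, Ndufs6 and Ndufa11 among them, lay on probe sets with several symbols and were not analysed here.

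Complex I is the enzyme through which electrons from NADH enter the mitochondrial respiratory chain. Its matrix arm passes electrons from a flavin along iron-sulfur clusters to ubiquinone, and its membrane arm pumps protons across the inner membrane. The subunits that form the core of the pump are encoded by mitochondrial DNA and carry other names, while the remaining core subunits and all accessory ones come from nuclear genes. When preadipocytes become fat cells, mitochondria are known to be made in larger amount.

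The cells were 3T3-L1, a mouse line of preadipocytes that turns into fat cells in differentiation medium. The groups were knockdown (KD) cells at day 0 with 3 arrays, control cells at day 0 with 3, KD cells at day 7 with 4 and control cells at day 7 with 4. Day 0 is post-confluent cells before induction and day 7 is after a week in differentiation medium. All cells carried a lentivirus, which encoded siRNA sequences against TP53INP2 in KD cells and scrambled ones in control cells, so a lasting difference between the transduced cells cannot be told apart from the knockdown. TP53INP2 is a protein of autophagosome formation that also binds thyroid hormone receptors. The labels do not say that replicates were separate cultures, so p-values speak only of how far these arrays spread, and that spread may be technical.

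Trp53inp2 itself checked the labels: it stood at 11.06, 11.14 and 11.66 in the day 0 KD arrays, against 12.45, 12.53 and 12.38 in the day 0 controls. At day 7 it stood at 10.20, 10.06, 10.01 and 10.45 in the KD arrays, against 11.74, 11.77, 11.78 and 11.70 in the controls. The groups did not overlap at either day (log2 difference -1.17 ± 0.15 SE at day 0, adjusted p = 0.00205, and -1.57 ± 0.13 SE at day 7, adjusted p = 0.000111). With replicates 1 and 2 averaged the day 0 value had adjusted p = 0.165. Of 8 measured adipocyte markers, 7 rose by day 7 in KD and in control cells (7 and 6 with replicates 1 and 2 averaged), with the lipoprotein lipase gene Lpl as the exception (-0.10 in KD and -0.08 in control cells). Replicates 1 and 2 lay closest together at both days. Over the brighter genes at day 7, the difference between both arrays had an SD of 0.179 in KD and 0.111 in control cells. The other pairs of arrays of those groups had 0.307 to 0.541 and 0.397 to 0.526. At day 0 the SD was 0.224 in KD cells, against 0.412 and 0.425 for the other pairs. In day 0 control cells it was 0.246, against 0.347 and 0.323. Replicates 1 and 2 may not be separate samples, so calls lost with both averaged to 1 sample are given with the results.

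**Figure D1:**
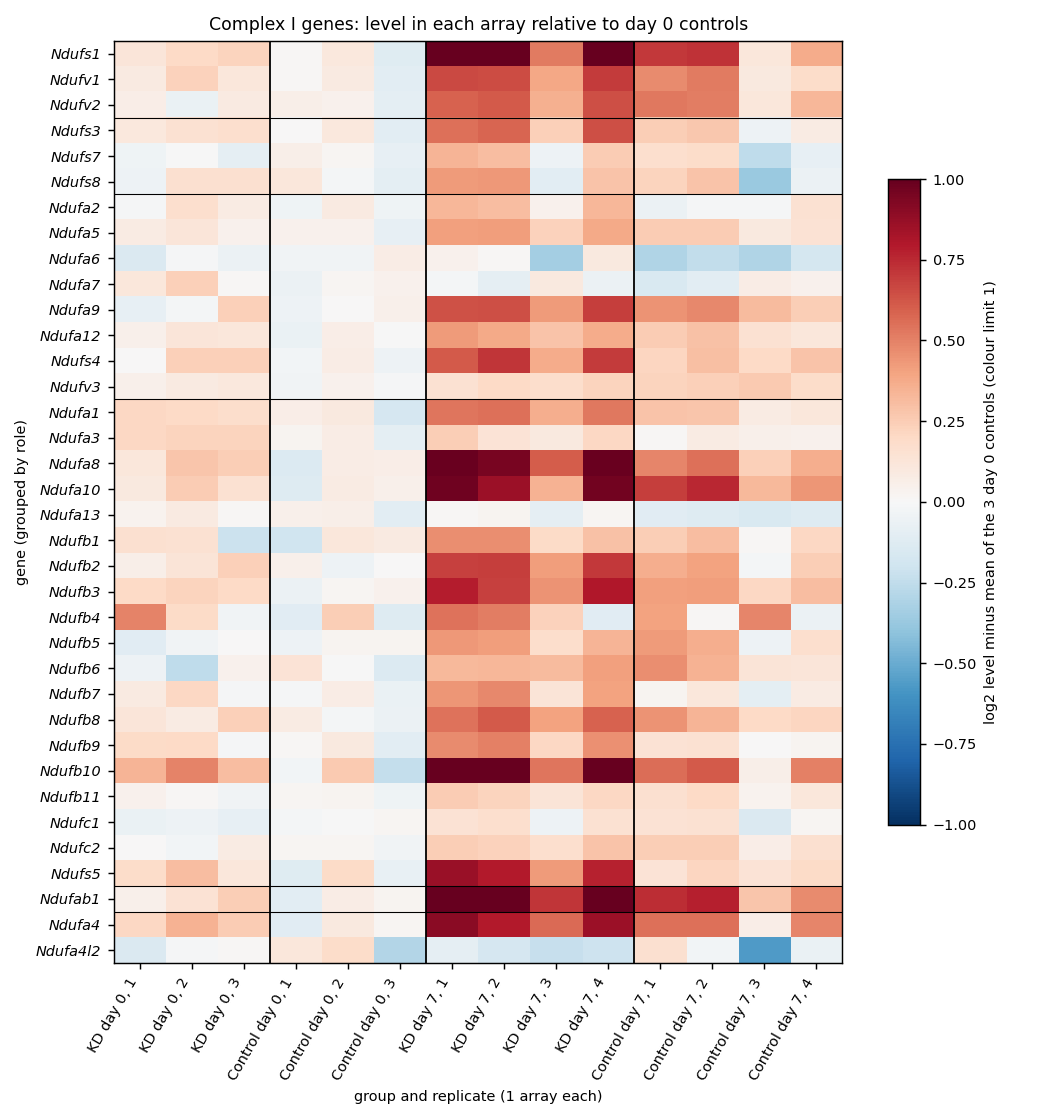
Level of each of the 36 genes in each array minus its mean over the 3 day 0 controls (log2 scale, red above and blue below, colours end at 1); columns are the 14 arrays by group and replicate, rows are genes grouped by role. Each day 7 KD column is redder than the control column of its own replicate number, and replicate 3 is the palest of its group in both, with a KD mean of 11.53 that lies below those of controls 1 and 2.

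In fat cells at day 7, 6 of the 36 complex I genes rose in KD cells over controls and 0 fell (limma, adjusted p under 0.05 over the 18193 genes): Ndufs5, Ndufa8, Ndufb2, Ndufs4, Ndufb3 and Ndufb9, by 0.33 to 0.54 on the log2 scale. Over all genes 6.58% were called in either direction and 3.01% were higher. The difference was above 0 for 34 of the 36 genes, with a median of 0.23, beside a median of -0.02 over all genes. The increases are small, between 1.26-fold and 1.46-fold for the called genes. With replicates 1 and 2 averaged, 0 of the 36 genes passed by limma, and 15 had an unadjusted p under 0.05.

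The 6 genes that rose code for accessory subunits, 5 in the membrane arm and 1, Ndufs4, in the matrix arm. Ndufs5 codes for a small subunit on the face of the membrane arm that looks into the intermembrane space. It stood at 10.53, 10.46, 10.09 and 10.44 in KD arrays, against 9.81, 9.88, 9.80 and 9.86 in controls. The control values lay within a narrow band that no KD array reached, and the log2 difference was 0.54 ± 0.10 SE (95% confidence interval 0.32 to 0.77, adjusted p = 0.0123). Ndufa8, a cysteine-rich subunit of the same face, stood at 11.31, 11.27, 10.93 and 11.31 in KD arrays, against 10.81, 10.88, 10.56 and 10.69 in controls. The KD array of replicate 3 was the lowest of its group but still above every control, and the log2 difference was 0.47 ± 0.11 SE (0.24 to 0.70, adjusted p = 0.0246).

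Ndufb2, a small protein of the membrane arm, stood at 11.83, 11.85, 11.57 and 11.86 in KD arrays, against 11.51, 11.55, 11.13 and 11.40 in controls. The lowest KD array lay just above the highest control, and the log2 difference was 0.38 ± 0.10 SE (0.16 to 0.60, adjusted p = 0.0478). Ndufb3, another small membrane subunit, stood at 12.42, 12.31, 12.08 and 12.43 in KD arrays, against 12.04, 12.04, 11.83 and 11.94 in controls. Its groups were again separate, with a log2 difference of 0.35 ± 0.09 SE (0.15 to 0.54, adjusted p = 0.0374).

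Ndufs4 codes for a matrix arm subunit needed to hold the NADH-oxidising module in place, and mice without it develop a fatal brain disease. It stood at 10.85, 10.95, 10.60 and 10.93 in KD arrays, against 10.45, 10.53, 10.43 and 10.52 in controls, with no overlap (0.35 ± 0.09 SE, 0.15 to 0.55, adjusted p = 0.0414). Ndufb9, a membrane arm subunit that docks an acyl carrier protein, stood at 12.34, 12.37, 12.07 and 12.32 in KD arrays, against 12.01, 12.02, 11.87 and 11.90 in controls. Here too every KD array was above every control (0.33 ± 0.09 SE, 0.13 to 0.52, adjusted p = 0.0489). In all 6 genes every KD array was above every control. KD being higher in 4 of 4 pairs of equal replicate number follows from that and adds no further evidence.

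**Figure D2:**
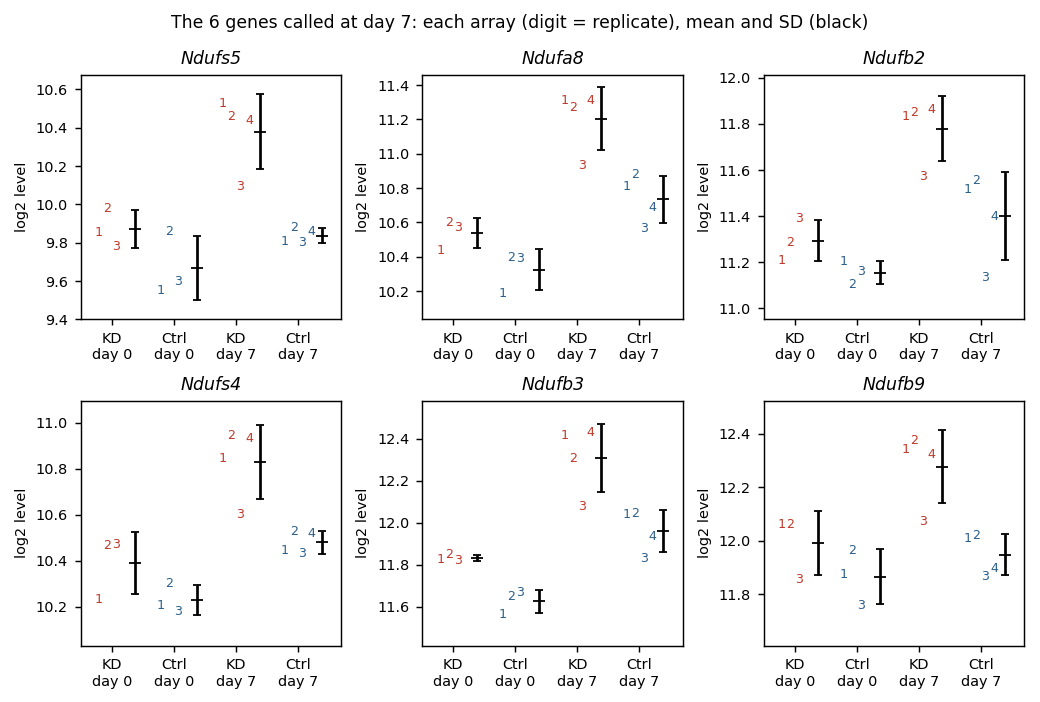
Log2 level of the 6 genes called at day 7, with each array drawn as its replicate number (red KD, blue control) and the group mean and SD in black; the vertical scale differs between panels. In each panel the 4 day 7 KD arrays lie above the 4 day 7 controls, and KD replicate 3 is the lowest KD array.

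The promoters of these genes are shown because the genes rose together. The set of RefSeq promoter sequences used here (build GRCm38.p6) had an entry for 32 of the 36 genes. It had one for 5 of the 6 that rose, all but Ndufb9. The 250 bases before the transcription start are printed 5′ to 3′ on the strand of the gene. Capitals mark exact matches, on either strand, to the motifs GCATGCGC (nuclear respiratory factor 1), AAGGTCA (estrogen-related receptor element), GGGCGG (Sp1), TGACGTCA (CREB) and CCAAT (NF-Y), and no match printed here overlaps another. The windows are chr4:123718187-123718436 on the minus strand for Ndufs5, chr2:36049339-36049588 on the minus strand for Ndufa8 and chr6:39592315-39592564 on the plus strand for Ndufb2. For Ndufb3 the window is chr1:58586147-58586396 on the plus strand, and for Ndufs4 chr13:114388095-114388344 on the minus strand.
Ndufs5: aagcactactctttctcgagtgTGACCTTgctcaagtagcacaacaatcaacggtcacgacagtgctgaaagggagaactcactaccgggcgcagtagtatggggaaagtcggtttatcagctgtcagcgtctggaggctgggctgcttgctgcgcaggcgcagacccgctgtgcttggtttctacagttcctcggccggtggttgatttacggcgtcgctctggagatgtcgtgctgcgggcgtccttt
Ndufa8: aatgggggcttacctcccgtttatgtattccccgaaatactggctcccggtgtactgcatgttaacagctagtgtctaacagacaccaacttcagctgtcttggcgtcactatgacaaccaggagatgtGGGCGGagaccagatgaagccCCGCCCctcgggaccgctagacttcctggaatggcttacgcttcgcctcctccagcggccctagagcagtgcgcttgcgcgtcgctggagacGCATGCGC
Ndufb2: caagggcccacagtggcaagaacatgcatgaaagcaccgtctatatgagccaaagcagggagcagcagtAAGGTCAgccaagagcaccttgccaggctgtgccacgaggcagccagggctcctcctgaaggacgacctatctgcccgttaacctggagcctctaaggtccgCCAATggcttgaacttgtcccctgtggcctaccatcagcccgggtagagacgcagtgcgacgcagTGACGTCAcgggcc
Ndufb3: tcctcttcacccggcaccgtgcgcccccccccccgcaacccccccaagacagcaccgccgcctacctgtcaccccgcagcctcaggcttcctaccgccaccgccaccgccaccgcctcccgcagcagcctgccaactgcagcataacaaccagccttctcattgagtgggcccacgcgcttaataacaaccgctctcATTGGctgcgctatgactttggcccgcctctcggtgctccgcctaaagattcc
Ndufs4: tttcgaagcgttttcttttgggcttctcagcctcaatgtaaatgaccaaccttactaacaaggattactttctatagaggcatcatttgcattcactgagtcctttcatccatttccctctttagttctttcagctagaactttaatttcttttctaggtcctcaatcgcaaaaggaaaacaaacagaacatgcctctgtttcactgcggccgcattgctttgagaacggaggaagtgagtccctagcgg

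The printed windows differ in what they hold. The window of Ndufa8 ends in the nuclear respiratory factor 1 motif, directly before the transcription start, and has 2 matches to GGGCGG. The windows of Ndufs5 and Ndufb2 hold the estrogen-related receptor element, that of Ndufb2 also the CREB and CCAAT motifs, and that of Ndufb3 a match to CCAAT. The window of Ndufs4 held none of the motifs searched. Over the 32 complex I promoters the nuclear respiratory factor 1 motif was in 2 (6.25%), beside 2.56% of all 27025 genes with an entry. The estrogen-related receptor element was in 3 (9.38%), beside 4.7%, and CCGGAAG, for the GABP factor of the ETS family, in 3 (9.38%), beside 7.83%. GGGCGG was in 14 (43.8%), beside 35.4%, TGACGTCA in 2 (6.25%), beside 1.77%, and CCAAT in 9 (28.1%), beside 37.5%. The DR1 repeat bound by PPAR gamma was in 0 of 32, beside 0.0407%. These matches describe letters in short windows, and binding was not measured here.

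Of the core subunit genes 0 of 6 passed by limma at day 7, and 3 had an unadjusted p under 0.05. Core and accessory genes were not tested against each other. Ndufs1 codes for the subunit that carries the most iron-sulfur clusters. It stood at 12.28, 12.28, 11.79 and 12.39 in day 7 KD arrays, against 11.98, 12.001, 11.39 and 11.65 in controls, and the groups overlapped (0.43 ± 0.15 SE, 0.10 to 0.76, adjusted p = 0.107). Ndufs3, a scaffold of the ubiquinone module, stood at 12.85, 12.88, 12.54 and 12.94 in KD arrays, against 12.54, 12.57, 12.25 and 12.38 in controls (0.37 ± 0.10 SE, 0.14 to 0.59, adjusted p = 0.0534). Only KD replicate 3 reached into the range of the controls. The flavin-binding subunit gene Ndufv1 had 0.28 ± 0.11 SE (adjusted p = 0.144) and Ndufv2, its iron-sulfur partner, 0.18 ± 0.10 SE (adjusted p = 0.326). Ndufs8 and Ndufs7, which carry the last iron-sulfur clusters before ubiquinone, had 0.24 ± 0.15 SE (adjusted p = 0.385) and 0.21 ± 0.11 SE (adjusted p = 0.297).

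Ndufb10, a membrane arm subunit facing the intermembrane space, had the largest difference of the 36 genes at day 7 and did not pass. It stood at 12.21, 12.23, 11.61 and 12.20 in KD arrays, against 11.63, 11.68, 11.13 and 11.58 in controls (0.56 ± 0.17 SE, 0.20 to 0.92, adjusted p = 0.0647). In both groups replicate 3 lay well below the other arrays, and the KD array was higher in 4 of 4 pairs. With the replicate number as a block Ndufb10 passed (0.56 ± 0.10 SE, adjusted p = 0.0121), as did Ndufs3 (adjusted p = 0.0314). Ndufa1 and Ndufb7, named after their values were seen, moved from adjusted p of 0.0508 and 0.0519 to 0.0271 and 0.0187 with the block. That fit called 10 complex I genes higher and 0 lower at day 7, the 6 above among them, with 5.14% of all genes higher. Its block joined arrays of equal number over both days, and the labels do not say that a number links the days.

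The acyl carrier protein gene Ndufab1, whose protein also serves mitochondrial fatty acid synthesis, had 0.43 ± 0.12 SE at day 7 (adjusted p = 0.0573; it too was named after its values were seen). Ndufa4 had 0.37 ± 0.12 SE (adjusted p = 0.0797), and its levels of 11.58, 11.47, 11.24 and 11.54 in KD arrays lay above those of 11.23, 11.23, 10.75 and 11.17 in controls. Ndufa4l2 and the accessory gene Ndufv3 were the genes below 0, at -0.05 ± 0.15 SE (adjusted p = 0.885) and -0.04 ± 0.06 SE (adjusted p = 0.756). By role, 1 of 8 accessory genes of the matrix arm rose (median 0.19) and 5 of 19 of the membrane arm (median 0.23), beside medians of 0.28 and 0.24 for the NADH-oxidising and ubiquinone-site core genes. Every KD array lay above every control for 11 genes, the opposite held for 0, and 25 overlapped, while 6.02% of all genes had every KD array above every control.

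**Figure D3:**
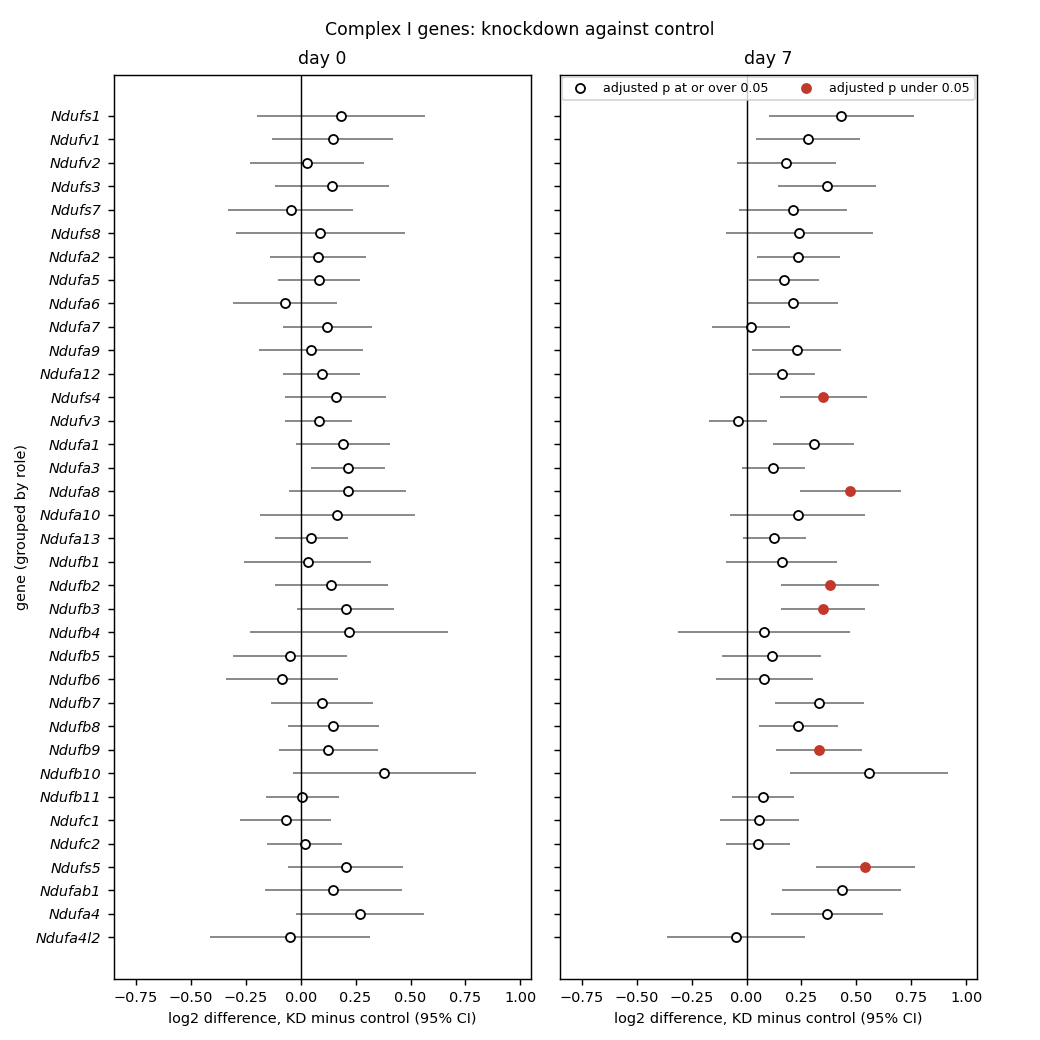
Difference between KD and control cells for each complex I gene at day 0 and day 7 (log2 scale, points with 95% confidence intervals from limma, filled where adjusted p is under 0.05), grouped by role. At day 0 no point is filled, and at day 7 6 are filled and 34 of 36 points lie right of 0.

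The same sign appeared in each pair of day 7 arrays with equal replicate number. KD was above control for 31, 32, 33 and 33 of the 36 genes in pairs 1 to 4, with medians of 0.21, 0.17, 0.20 and 0.33, beside all-gene medians between -0.02 and 0.00. Pair 4 had the highest median and pair 2 the lowest. The mean over the 36 genes was 11.79, 11.78, 11.53 and 11.77 in KD arrays, against 11.57, 11.58, 11.34 and 11.45 in controls. KD replicate 3 was thus below controls 1 and 2, while each KD array was above its own control.

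**Figure D4:**
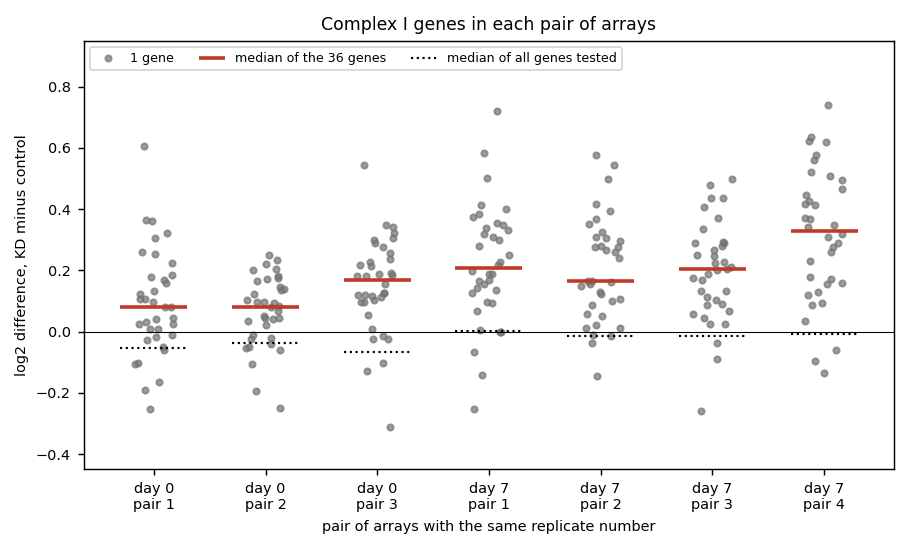
Difference between the KD and the control array of the same replicate number for each of the 36 genes (points, log2 scale), with the median of the 36 (red line) and of all genes (dotted line), for 3 pairs at day 0 and 4 at day 7. The red line is above the dotted line in all 7 pairs, and it is highest in day 7 pair 4, at 0.33.

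A gene's other probe sets gave a second readout for 20 of the 36 genes. At day 7, 41 of these 42 probe sets were above 0, and 4 were called higher over all 45037 probe sets, where 2 of the 36 representing probe sets were. A second Ndufb9 probe set had 0.57 ± 0.12 SE (adjusted p = 0.0225). Second ones of Ndufab1, Ndufb7 and Ndufb8 passed as well, at 0.72, 0.52 and 0.68. The remaining Ndufb9 probe set and the others of Ndufb2 were above 0 and did not pass. Ndufs4 was less even: its other probe sets had 0.12, -0.08 and 0.53, and none passed. Ndufs5, Ndufa8 and Ndufb3 have a single probe set. The probe sets used for Ndufa2, Ndufa3, Ndufa12, Ndufa13, Ndufc2, Ndufs8 and Ndufv1 carry the maker's mark s or x, for probes shared with other sequences. Similar copies may thus add to their signal, and none of the 6 called genes carries s or x. Those of Ndufb2 and Ndufb9 carry the mark a, for several transcripts of 1 gene. Ndufb4 and Ndufa4l2 were among the dimmest 40% of genes, and their values say little.

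How many complex I genes passed at day 7 depended on single arrays. It was 18 without KD day 7 replicate 3, 1 without any of KD day 7 replicates 1, 2 and 4 or control day 7 replicates 3 and 4, 2 without control day 0 replicate 1 or 2, KD day 0 replicate 2 or control day 7 replicate 1, and 3 without KD day 0 replicate 1. With replicates 1 and 2 averaged, when it was 0, 64 genes were called in all. The share of all genes called without single arrays is not given here. Ndufs5 passed in 25 of 26 alternative settings (adjusted p from 0.0012 to 0.151) and Ndufa8 in 19 (0.00326 to 0.179), and the other called genes in 9 or 10. For Ndufb2, Ndufs4, Ndufb3 and Ndufb9 the adjusted p reached at least 0.227.

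Markers of fat cells moved the same way. All 8 adipocyte markers were above 0 in the day 7 comparison (median 1.04), though 0 passed by limma (4 with an unadjusted p under 0.05, and 3, Cidec, Pparg and Slc2a4, passed with the replicate block). Their mean level was 12.02, 11.99, 11.03 and 12.14 in KD arrays, against 11.46, 11.54, 10.04 and 10.20 in controls. KD replicate 3 was again the lowest of its group. Of 6 preadipocyte or fibroblast markers 1 fell, the growth factor receptor gene Pdgfra (-0.49 ± 0.13 SE, adjusted p = 0.0436, and 0.225 with replicates 1 and 2 averaged), and 0 were above 0. Their mean level ran from 9.91 to 10.78 in KD arrays and from 10.53 to 10.85 in controls. The part of the fat cell markers in the complex I differences was not tested. In cultures like these, more differentiated cells and more RNA per cell cannot be told apart.

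The genes around complex I were read in the same comparison, where 3.01% of all genes were higher and 5.14% with the replicate block. Of 17 assembly factor genes, whose proteins build the complex and leave it, 1 rose and 0 fell at day 7: Ndufaf2, which helps mount the NADH-oxidising module (0.68 ± 0.12 SE, adjusted p = 0.00669). Ndufaf2 stood at 9.75, 9.84, 9.31 and 9.82 in KD arrays, against 9.02, 9.07, 8.87 and 9.04 in controls, with no overlap. Their median was 0.39, and 4 were called higher with the replicate block. Complex III, which takes electrons from ubiquinol, had 3 of 9 genes higher: the Rieske protein gene Uqcrfs1 (0.73 ± 0.20 SE, adjusted p = 0.0474, and 0.0537 with the replicate block), Uqcr11 (0.55 ± 0.15 SE, adjusted p = 0.047) and Uqcrq (0.44 ± 0.11 SE, adjusted p = 0.0369). The median of complex III was 0.42. Complex II had 0 of 4 (median 0.25; 1 with the block) and complex IV 0 of 11 (median 0.12). Of 14 ATP synthase genes 1 rose, Atp5k (0.42 ± 0.11 SE, adjusted p = 0.0424), with a median of 0.18 and 2 called with the block. Values above 0 were found for 16 of 17 assembly factor genes, 9 of 9 of complex III and 4 of 4 of complex II. The same held for 8 of 11 of complex IV and 14 of 14 of ATP synthase, beside 47.1% of all genes. With replicates 1 and 2 averaged, 0 genes of these lists passed at day 7 by limma.

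Among 14 regulators of mitochondrial biogenesis, 1 fell and 0 rose at day 7, with 1 more higher with the block. Over all genes 6.58% were called in either direction at day 7. The gene that fell was Gabpa, the DNA-binding subunit of the ETS factor GABP (-0.38 ± 0.09 SE, adjusted p = 0.0248, and 0.188 with replicates 1 and 2 averaged). It stood at 9.04, 9.04, 9.08 and 9.26 in KD arrays, against 9.55, 9.36, 9.43 and 9.60 in controls, so each KD array lay below each control. Others had values above 0 that did not pass: the coactivators Ppargc1a (0.65, adjusted p = 0.0939) and Ppargc1b (0.85, adjusted p = 0.236), the nuclear receptor Esrra (0.55, adjusted p = 0.142), Nrf1 (0.38, adjusted p = 0.191) and the mitochondrial DNA factor Tfam (0.29, adjusted p = 0.122).

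In preadipocytes at day 0, 0 of the 36 genes were called by limma (1, Ndufa3, with an unadjusted p under 0.05, and 0 with the replicate block or with replicates 1 and 2 averaged). Over all genes 1.8% were called in either direction and 0.467% were higher. The difference was above 0 for 30 of 36 genes, with a median of 0.11, beside -0.05 over all genes. Every KD array lay above every control for 13 genes and below for 1, Ndufc1, while 6.89% of all genes had every KD array above every control. In pairs 1 to 3 KD was higher for 26, 26 and 30 genes, with medians of 0.08, 0.08 and 0.17.

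Ndufb10 had the largest value, as at day 7. It stood at 11.41, 11.57 and 11.38 in day 0 KD arrays, against 11.05, 11.33 and 10.84 in controls, with no overlap (0.38 ± 0.19 SE, -0.04 to 0.80, adjusted p = 0.375). Ndufa4 stood at 10.89, 11.03 and 10.94 in KD arrays, against 10.57, 10.78 and 10.70 in controls, also without overlap (0.27 ± 0.14 SE, adjusted p = 0.37), and the dim Ndufb4 had 0.22 ± 0.21 SE (adjusted p = 0.691). Among the core genes Ndufs1 had 0.18, Ndufv1 0.15, Ndufs3 0.14, Ndufs8 0.09, Ndufv2 0.03 and Ndufs7 -0.05, with adjusted p from 0.64 to 0.948. Ndufa4l2 had -0.05 ± 0.17 SE (adjusted p = 0.941).

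RNA quality moved with the day 0 groups, and the day 0 values depended on how the arrays were scaled. The median over all probe sets overlapped, from 5.46 to 5.57 in day 0 KD arrays and from 5.44 to 5.49 in controls. Shifting every array to 1 median moved the all-gene difference by 0.16, to a median of 0.11, and the complex I genes then all lay above 0 (36 of 36, median 0.27). Relative to all genes their median was 0.16 under both scalings, which such a shift cannot change. That relative median was 0.12 after quantile normalization. The split of all genes called changed with it, from 85 higher and 243 lower as deposited to 262 higher and 111 lower, and it was 115 and 125 after quantile normalization. The gap between the 3′ and 5′ beta-actin control probe sets, a measure of RNA degradation and amplification, was 3.23, 2.97 and 2.74 in day 0 KD arrays, against 3.76, 3.54 and 3.32 in controls, with no overlap. At day 7 the gap ran from 2.70 to 3.37 in KD arrays and from 2.82 to 3.48 in controls. With this gap as a covariate the day 0 median was 0.24 (0.28 relative to all genes), and 0 of the 36 genes were called by limma.

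The differences at day 7 and at day 0 were set against each other in 1 test. None of the 36 genes was called by limma (0 with an unadjusted p under 0.05, and 0 with the replicate block), beside 0.022% of all genes in either direction and 0.0165% higher. Ndufs5 had the largest value, 0.34 ± 0.16 SE (-0.01 to 0.68, adjusted p = 0.389), then Ndufab1 with 0.29 ± 0.19 SE (adjusted p = 0.562) and Ndufa6, a matrix arm subunit, with 0.28 ± 0.14 SE (adjusted p = 0.442). Among the core genes the values ran from 0.13 for Ndufv1 to 0.26 for Ndufs7, with adjusted p from 0.57 to 0.83. Ndufa4 had 0.10 ± 0.18 SE (adjusted p = 0.86), and Ndufa4l2 had -0.0014 ± 0.22 SE (adjusted p = 0.999). The difference was above 0 for 31 genes (median 0.15, all genes 0.04). With every array shifted to 1 median, which moves the all-gene median by -0.14, 18 of 36 were above 0 (median 0.0019). Relative to all genes the median was 0.10 under both, which such a shift cannot change. That relative median was 0.13 after quantile normalization and -0.0022 with the beta-actin covariate. So an effect at day 7 that is larger than at day 0 was not shown for any complex I gene.

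Many complex I genes were higher at day 7 of differentiation than at day 0. In KD cells 23 of 36 were higher at day 7 than at day 0 and 0 were lower (median 0.31, all genes 0.01), beside 35.8% of all genes called and 19% higher. In control cells 9 were higher and 0 lower (median 0.20, all genes -0.01), beside 22.9% called and 10.1% higher. The lists shared 8 genes, 88.9% of the control list and 34.8% of the KD list, with Ndufv3 called in control cells alone, but the test of the difference between the cells, given above, called none. With replicates 1 and 2 averaged, 6 were called in KD cells and 0 in control cells (7 there with an unadjusted p under 0.05). Of all 18193 genes, 2273 were then higher in KD cells and 743 in control cells.

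Ndufab1 rose the most in both. It stood at 11.91, 11.92, 11.54 and 11.94 in KD cells at day 7, against 10.88, 10.97 and 11.08 in KD cells at day 0 (0.85 ± 0.13 SE, adjusted p = 0.000299). In control cells it stood at 11.57, 11.61, 11.11 and 11.30 at day 7, against 10.73, 10.91 and 10.86 at day 0 (0.57 ± 0.13 SE, adjusted p = 0.00887). No day 7 array overlapped day 0 in either kind of cell. Ndufa10, a membrane arm subunit related to nucleoside kinases, was second in control cells (0.55 ± 0.15 SE, adjusted p = 0.0194) and also rose in KD cells (0.62 ± 0.15 SE, adjusted p = 0.00617).

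In KD cells all 3 NADH-oxidising core genes rose, Ndufs1 by 0.73 ± 0.16 SE (adjusted p = 0.0036), Ndufv2 by 0.52 ± 0.11 SE (adjusted p = 0.00258) and Ndufv1 by 0.45 ± 0.12 SE (adjusted p = 0.00868). Ndufs1 stood at 12.28, 12.28, 11.79 and 12.39 at day 7, against 11.40, 11.48 and 11.50 at day 0. In control cells Ndufv2 rose (0.37 ± 0.11 SE, adjusted p = 0.031), while Ndufs1 had 0.48 ± 0.16 SE (adjusted p = 0.0531) and passed with the replicate block (adjusted p = 0.0394). Of the ubiquinone-site genes Ndufs3 rose in KD cells (0.36 ± 0.11 SE, adjusted p = 0.0225), and 0 of 3 passed in control cells, where the values were 0.14, 0.02 and 0.00.

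Among the accessory genes, 4 of 8 in the matrix arm and 13 of 19 in the membrane arm rose in KD cells, and 2 of 8 and 4 of 19 in control cells. Ndufa8, Ndufb10, Ndufa9, Ndufs5, Ndufb2, Ndufb3, Ndufs4, Ndufb6, Ndufb8, Ndufb5, Ndufa1, Ndufb9 and Ndufa5 rose in KD cells, by 0.67 for Ndufa8 down to 0.28 for Ndufa5 (adjusted p from 0.000528 to 0.0366). In control cells Ndufa8 (0.41), Ndufa9 (0.37), Ndufb3 (0.33), Ndufb8 (0.30) and Ndufv3 (0.23) rose, with adjusted p from 0.0182 to 0.0271. Ndufa4 rose in KD cells (0.51 ± 0.13 SE, adjusted p = 0.0064) and in control cells (0.41 ± 0.13 SE, adjusted p = 0.032), and Ndufa4l2 had -0.13 in KD and -0.12 in control cells (adjusted p = 0.603 and 0.655). Ndufa6, which belongs to the same family of acyl carrier binding proteins as Ndufb9, had 0.02 in KD cells and -0.26 in control cells (adjusted p = 0.894 and 0.0954), and it was named after its values were seen. In control cells its day 7 levels of 11.67, 11.72, 11.67 and 11.80 lay below its day 0 levels of 11.93, 11.94 and 12.04.

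**Figure D5:**
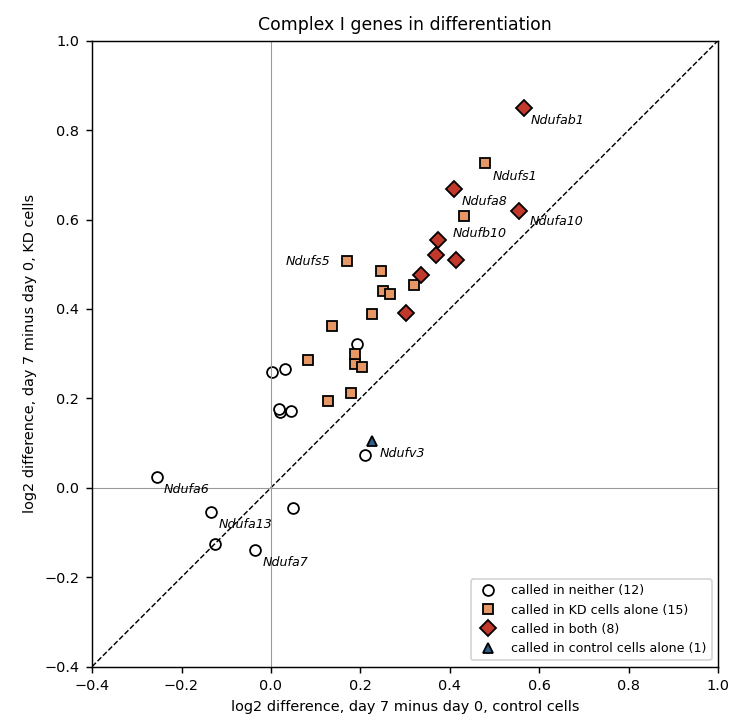
Difference between day 7 and day 0 for each of the 36 genes in control cells (horizontal) and in KD cells (vertical), on the log2 scale, with the symbol giving where limma called the gene and the dashed line equal differences. Of the 36 points 15 were called in KD cells alone, 8 in both, 1 in control cells alone and 12 in neither, and Ndufab1 is at the upper right.

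Single arrays moved these counts too. In control cells the count was 14 without control day 7 replicate 3, 1 without control day 7 replicate 1 or 2, and 2, 4 and 5 without control day 0 replicates 1, 2 and 3. In KD cells it was 15 without KD day 0 replicate 1 and 27 without KD day 7 replicate 3. Here too the share of all genes called without single arrays is not given. Shifting arrays to 1 median gave 15 in KD cells, and the split of all genes called there was 2791 higher and 3676 lower, against 3455 and 3051 as deposited.

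The other respiratory lists were counted over the same days, beside 19% of all genes higher in KD cells and 10.1% in control cells. Of 17 assembly factor genes 14 rose in KD cells and 5 in control cells. Acad9, an acyl-CoA dehydrogenase relative that works in complex I assembly, rose by 1.36 in KD cells and 0.85 in control cells (adjusted p = 9.81e-06 and 0.000781). In the same order Tmem70 rose by 1.47 and 0.92 and the iron-sulfur carrier gene Nubpl by 0.85 and 0.59. Complex III had 8 of 9 genes higher in KD cells and 5 of 9 in control cells, ATP synthase 7 of 14 in KD and 4 of 14 in control cells, complex II 2 of 4 and 0 of 4, and complex IV 2 of 11 and 0 of 11. The share of complex IV was thus no higher than that of all genes in either kind of cell, nor was that of complex II in control cells. With replicates 1 and 2 averaged, the counts in KD and control cells were 11 and 2 for assembly factors, 6 and 0 for complex III, 2 and 1 for ATP synthase, and 0 and 0 for complexes II and IV. Over all 18193 genes they were 2273 and 743. Tmem70 was then not called in control cells (adjusted p = 0.0849). The regulator Ppargc1b rose by 2.55 in KD cells and 1.68 in control cells, and Tfam by 0.94 and 0.49, and averaging left neither called in control cells (adjusted p = 0.153 and 0.102). Ppargc1a fell in both, with a log2 difference of -1.23 in KD cells (adjusted p = 0.00129) and -1.56 in control cells (adjusted p = 0.000524). Among markers of other cells, 0 of 5 macrophage, 0 of 4 endothelial and 0 of 4 muscle genes passed between KD and control cells at either day. Of 4 brown fat genes 1 was lower at both days, the deiodinase gene Dio2 (-2.40 at day 0 and -1.47 at day 7), and with replicates 1 and 2 averaged it was not called at either day (adjusted p = 0.0925 and 0.107).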

How the data were processed

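RNA of 14 samples of 3T3-L1 cells was amplified, labelled and hybridised to 1-colour mouse arrays, 1 array a sample, per the labels' protocols. The deposited values are log2 intensities per probe set, made with RMA in the affy package per the submitters' processing notes, with no version stated in the sources used here. RMA corrects background, normalizes arrays to each other and summarises probes, and precision is limited by how many arrays there are.

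From 45101 probe sets, 64 controls were left out, 34945 had 1 gene symbol, 932 had several and 9160 were unnamed. Each gene was represented by its single-symbol probe set of highest mean. The symbols of all 36 complex I genes were found by gene ID in the RefSeq table. The values were used as deposited. limma 3.58.1 in R 4.3.3 fitted 4 group means to all 14 arrays (12.6 degrees of freedom after moderation), with Benjamini-Hochberg adjustment over 18193 genes and calls at an adjusted p under 0.05. The procedure was tested on simulated data. No test was made of a list as a whole.

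Replicate numbers come from the labels. Arrays of equal number deviated together from their group means. The correlation over genes was 0.210, 0.187 and 0.331 in day 0 pairs and 0.434, 0.478, 0.590 and 0.389 in day 7 pairs. At day 7 it was as high for KD replicate 1 with control 2 (0.487) and KD replicate 2 with control 1 (0.467). The number thus did not tell replicates 1 and 2 apart at day 7. The numbers were still taken to pair the samples, and the replicate block was fitted as an alternative. That block gave each number a single term over both days. The correlations were taken within a day, and the labels do not say that a number links the days.

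The complex I genes, the gene lists and the tests were chosen with earlier results of these data known. In each comparison the called complex I genes (at most the 20 of largest change), the 3 of largest change, the core subunits where KD and control cells are compared, Ndufa4 and Ndufa4l2 were named. Of other lists, up to 5 called genes and 6 regulators were named. Other settings are given in the closing section.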

Additional observations from a re-analysis of the deposited data

Results flagged for a closer look

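In groups of 4 arrays, 1 array stood far from the other 3 by Dixon's test in 11 of 72 tests on complex I genes, where chance gives about 1 in 20. Arrays share their deviations across genes, so these are not independent cases. KD day 7 replicate 3 was the low array for 9 genes. It had 12.28 for Ndufa1 (others 12.44 to 12.47), 13.01 for Ndufa13 (13.11 to 13.13) and 11.94 for Ndufa2 (12.21 to 12.23). The same array had 10.93 for Ndufa8 (11.27 to 11.31), 11.54 for Ndufab1 (11.91 to 11.94) and 11.61 for Ndufb10 (12.20 to 12.23). For Ndufb2 it had 11.57 (11.83 to 11.86), for Ndufc1 13.13 (13.33 to 13.35) and for Ndufv1 12.77 (13.03 to 13.08). KD day 7 replicate 4 was the high array for Ndufb6, at 12.46 (12.37 to 12.38). Control day 7 replicate 3 was the low array for Ndufa4, at 10.75 (11.17 to 11.23).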

How the results depend on the processing

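The 6 genes called at day 7 became 10 with the replicate block, 13 with the replicate block within day (added after seeing the data), 0 with replicates 1 and 2 averaged, 3 with arrays shifted to 1 median, 12 of 34 without the dimmest 40% of genes, 17 with the beta-actin covariate, 14 without both replicate 3 arrays of day 7, 1 with only the arrays of the groups compared and 18 with array weights. Leaving out 1 array gave 1 to 18, and medians of 0.18 to 0.30. Over all genes 547 were higher at day 7 as reported, 936 with the replicate block and 25 averaged. With shifted arrays 523 were higher, and with the covariate 1475. For the other settings at day 7 the share of all genes called is not given here. For day 7 over day 0, the 9 genes in control cells became 0 averaged, 14 without dim genes and 17 with the covariate. They became 3 without both replicate 3 arrays of day 0, and 17 without those of day 7, of which 16 were higher and 1 lower. With only the groups compared there were 5 (leaving out 1 array, 1 to 14, medians 0.17 to 0.24). Over all genes 1842 were higher in control cells as reported, 2134 with the replicate block, 743 averaged and 2243 with the covariate. In KD cells 3455 genes were higher as reported, 3756 with the replicate block, 2273 averaged and 2791 with shifted arrays. For the other settings of day 7 over day 0 the count of all genes called is not given here. The 23 in KD cells became 6 averaged and 15 with shifted arrays (leaving out 1 array, 15 to 27, medians 0.28 to 0.36). The replicate block gave 12 and 24 there, lost Ndufc2 in KD cells (adjusted p = 0.0634), and called 0 genes at day 0 and in the difference of effects. Counts at day 0 and in the difference of effects were 0 to 0 on leaving out 1 array.

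The day 0 median of 0.11 was 0.27 with shifted arrays, 0.18 when each gene's probe set was chosen by interquartile range and 0.24 with the covariate (leaving out 1 array, 0.08 to 0.13). The median difference of effects of 0.15 was 0.0019 with shifted arrays and 0.0346 with the covariate (0.07 to 0.21). The interquartile choice gave medians of 0.31 at day 7 and 0.50 for day 7 over day 0 in KD cells.

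Signs turned for the values below, of which Ndufb9 alone was called. At day 0 Ndufs7 was 0.12 with shifted arrays, 0.0927 by the interquartile choice, 0.0234 averaged over probe sets and 0.21 with the covariate, Ndufv2 was -0.0484 without both replicate 3 arrays, and Ndufa4l2 was 0.0402 averaged, 0.12 shifted, 0.0456 after quantile normalization and 0.20 with the covariate. At day 7 Ndufa4l2 was 0.000488 averaged and 0.044 with the covariate. In the difference of effects Ndufab1 was -0.37 by the interquartile choice, Ndufs8 -0.0417 with the covariate, Ndufv1 -0.0096 shifted and -0.0101 with the covariate, Ndufa4 -0.0481 and -0.0283, and Ndufa4l2 0.18 without both replicate 3 arrays of day 0. In control cells over time Ndufa4l2 was 0.00803 with the covariate and 0.0237 without both replicate 3 arrays of day 7. Ndufb9, called in KD cells over time, was -0.0132 by the interquartile choice, which takes a dim probe set. Leaving out 1 array gave -0.0194 to 0.0783 for Ndufv2, -0.20 to 0.0429 for Ndufa4l2 at day 0 and -0.20 to 0.0466 at day 7, -0.0200 to 0.17 for Ndufa4 and -0.15 to 0.15 for Ndufa4l2 in the difference of effects, and -0.27 to 0.0237 for Ndufa4l2 in control cells over time. The cause was not tested.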

Other observations

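Electrons also reach ubiquinone by ways that bypass complex I. Of 6 such genes 1 rose in day 7 KD cells over control cells, Etfb, which codes for a subunit of the carrier of electrons from fatty acid oxidation (0.54 ± 0.14 SE, adjusted p = 0.044), and all 6 were above 0 (median 0.33). With the replicate block 2 were called, Etfb and Prodh, and with replicates 1 and 2 averaged 0 were, by limma. Over all genes 3.01% were higher at day 7, and 5.14% with the replicate block. Between day 0 and day 7, 5 of the 6 rose in KD cells and 4 in control cells (5 and 1 with replicates 1 and 2 averaged). Etfdh, whose protein passes those electrons to ubiquinone, rose by 1.36 in KD cells and 0.68 in control cells (adjusted p = 0.0591 in control cells when averaged), and Dhodh, of pyrimidine synthesis, by 1.59 and 1.41. The difference between the cells was not called for Etfdh (0.68 ± 0.20 SE, adjusted p = 0.187) or Dhodh (0.17 ± 0.26 SE, adjusted p = 0.821).

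Of 12 genes of mitochondrial mass and protein import, 0 were called by limma between KD and control cells at day 7 (4 with an unadjusted p under 0.05, 1, Timm23, with the replicate block), with a median of 0.09. Between day 0 and day 7, 8 of them rose in KD cells and 4 in control cells (7 and 0 with replicates 1 and 2 averaged), with medians of 0.37 and 0.16.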
